A study of Mus musculus with 6 samples.

Results

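The ligands and receptors of the tumor necrosis factor (TNF) superfamily were followed in RNA-seq data from mouse hearts after myocardial infarction (MI). The genes were taken by symbol: those named *Tnfsf* or *Tnfrsf* with a number, together with *Tnf*, *Lta*, *Ltb*, *Ltbr*, *Fas*, *Fasl*, *Cd27*, *Cd40*, *Cd40lg*, *Cd70*, *Ngfr* and *Eda2r*. RefSeq holds 44 such mouse genes, and 41 of them, 15 ligands and 26 receptors, were among the 17441 genes listed in at least 1 library. *Cd70*, *Cd40lg* and the non-coding gene *Tnfsf13os* were listed in none. Of the 41, 26 were listed in every library.

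The 3 groups were sequenced from heart tissue below the ligature, 3 days after surgery, in male mice that were 12 weeks old by the sample labels. WT Sham hearts came from WT mice after a sham operation, WT MI hearts from WT mice after ligation of the left coronary artery, and *Card9* KO MI hearts from *Card9* knockout (KO) mice after the same ligation. All strains had a C57BL/6 background, and the knockout was carried by the whole animal, so that no cell type was singled out. Each group had 2 libraries. Sham-operated *Card9* KO hearts were not analysed here, so the effects of genotype and infarction cannot be told apart where *Card9* KO MI is set against WT Sham. The labels do not say whether 1 library held 1 heart, and p-values therefore measure the spread between these libraries, which may be technical.

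TNF superfamily ligands are mostly made as membrane proteins in groups of 3 chains, and many can be cut from the cell surface. Their receptors carry cysteine-rich repeats outside the cell. Receptors with a death domain, such as FAS and TNF receptor 1, can start caspase-dependent or necroptotic death, while receptors without one recruit TRAF adaptors and activate NF-kappaB and MAP kinases. Decoy receptors bind a ligand without passing a signal on. In the infarcted heart these genes are known from infiltrating leukocytes, fibroblasts, endothelium and injured muscle.

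Values are FPKM, fragments scaled to transcript length and to all mapped fragments of the library, as deposited. The libraries were estimated to hold between 3016000 and 4265500 fragments, at which 3 fragments on a 2-kb transcript are worth between 0.352 and 0.497 FPKM. Fragments could be estimated only approximately from the low values, so intervals and limits made from such fragment estimates are approximate too and cover counting error only. All 10 cardiomyocyte markers were detected in every library, with a summed FPKM between 51500 and 52400 in WT Sham hearts, 32600 and 33200 in WT MI hearts, and 27400 and 31600 in *Card9* KO MI hearts. The targeted gene *Card9* (NCBI gene 332579) was measured at an FPKM of 0.99 and 1.03 in WT Sham hearts, 3.39 and 5.08 in WT MI hearts, and 9.85 and 6.94 in the libraries with the label *Card9* KO MI. *Card9* therefore went against the label, and every direction given between the infarct groups, or for either of them against WT Sham, rests on the labels alone. The deposited value covers the gene as a whole and does not tell one exon from another.

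The 13120 genes that reached an FPKM of 1 in 2 or more libraries were tested on log2(FPKM + 1) with limma, and a gene was called at a Benjamini-Hochberg adjusted p below 0.05. Log2 fold changes below are on this scale, which understates the change of low genes. Of the 41 superfamily genes, 27 passed this minimum, 8 ligands and 19 receptors. Of these 27, 13 reached an FPKM of 1 in both WT Sham libraries and 10 in neither. All but the 13 could pass only with the help of an infarct library, so counts and medians over the 27 are descriptive.

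**Figure D1:**
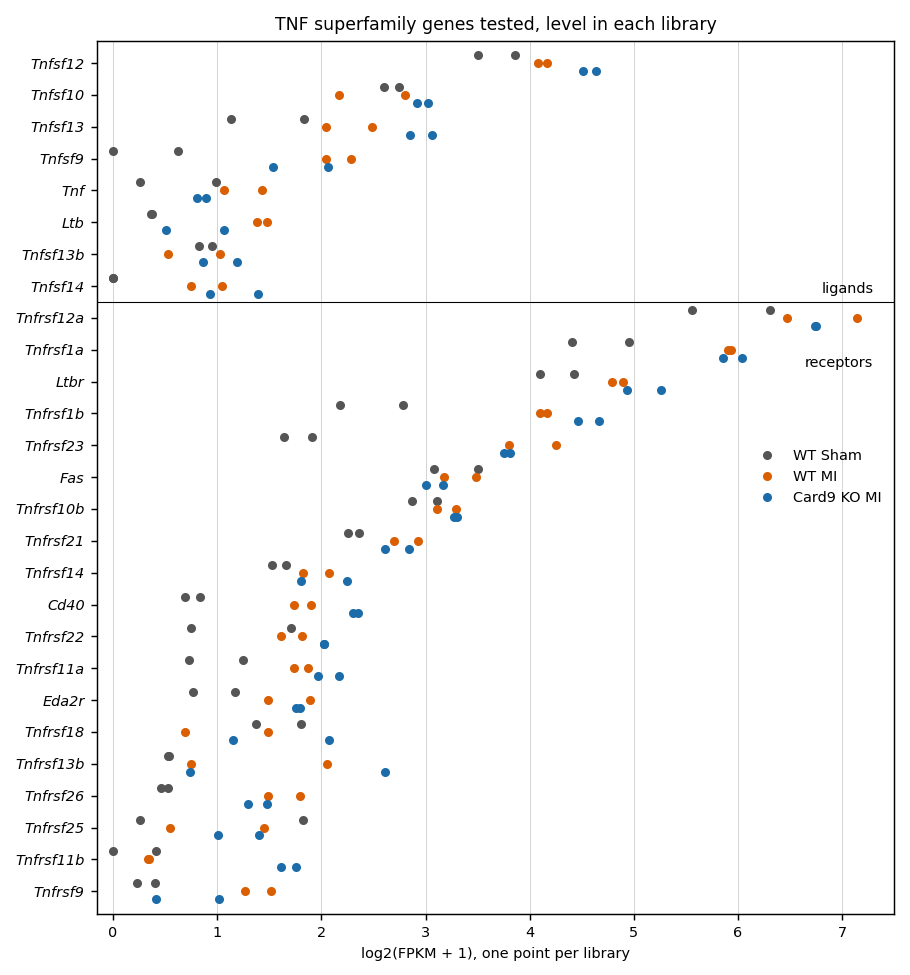
Level of the 27 tested TNF superfamily genes in each of the 6 libraries, on a horizontal axis of log2(FPKM + 1), with ligands above the line and receptors below it, ordered by mean level. Tnfrsf12a is the highest in every library (46.00 to 140.23 FPKM), and most ligands lie far below the leading receptors.

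As deposited, the tested TNF superfamily genes were more often higher than lower in WT MI against WT Sham. FPKM is relative to all mapped fragments, and the number of members called depended on the minimum and on the scaling. In WT MI against WT Sham, 14 of the 27 tested members were called higher and 0 lower (limma with Benjamini-Hochberg adjustment), and 0 were lower at an unadjusted p below 0.05. Over all tested genes, 27.7% were called higher and 9.39% lower. Members had a median log2 fold change of 0.72, against 0.19 for all genes, and with no minimum the medians were 0.43 over the 41 members and 0.11 over all genes. Among the 13 members with an FPKM of at least 1 in both WT Sham libraries, which did not depend on the infarct groups to be tested, 6 were called higher and 0 lower. These were the receptor genes *Ltbr*, *Tnfrsf12a*, *Tnfrsf1a*, *Tnfrsf1b* and *Tnfrsf23* and the ligand gene *Tnfsf12*. Under both other scalings described next, 3 of the 13 were called higher (*Tnfrsf1a*, *Tnfrsf1b* and *Tnfrsf23*), where 19.6% (upper-quartile) and 17.4% (quantile) of all genes were. These shares are of all 13120 tested genes, without the WT Sham minimum that set the 13 apart. By class, 4 of 8 ligands and 10 of 19 receptors were called higher. The summed FPKM of the ligands was 19.3 and 23.6 in WT Sham hearts and 32.3 and 35.8 in WT MI, and that of the receptors 170 and 121 against 305 and 254. Much of the receptor sum was *Tnfrsf12a* alone, with 78.32 and 46.00 in WT Sham and 140.23 and 87.52 in WT MI, and its call was lost under both other scalings. Bulk libraries do not separate a change in the number of cells of a type from a change in RNA per cell.

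The split of all genes into higher and lower moved with the scaling of the libraries. Of all genes, 3637 were called higher and 1232 lower for WT MI against WT Sham as deposited, 2576 and 2202 with upper-quartile scaling, and 2287 and 2414 with quantile normalization, at medians of 0.19, 0.00 and −0.07. Under both other scalings 9 of the 14 members kept their call, namely *Cd40*, *Ltb*, *Tnfrsf1a*, *Tnfrsf1b*, *Tnfrsf23*, *Tnfrsf26*, *Tnfrsf9*, *Tnfsf14* and *Tnfsf9*, and *Ltbr*, *Tnfrsf11a*, *Tnfrsf12a*, *Tnfsf12* and *Eda2r* lost it. Of the 9, *Tnfrsf1a*, *Tnfrsf1b* and *Tnfrsf23* are among the 13 members at an FPKM of 1 or more in both WT Sham libraries. The rest reached 1 in no WT Sham library and were tested only because of infarct libraries, so their kept calls are descriptive. Single libraries also mattered. In each of the 4 fits with 1 library of WT Sham or WT MI left out, fewer members were called higher, and so were fewer of all genes. The median log2 fold change of the members ran from 0.52 to 0.90 in these fits, against 0.18 to 0.19 for all genes. The calls of *Cd40*, *Tnfrsf1a*, *Tnfrsf1b*, *Tnfrsf23*, *Tnfrsf26* and *Tnfsf9* held in each of these 4 fits. Beyond scaling and single libraries, the calls of *Tnfsf12* and *Tnfrsf12a* were lost without the trend, those of *Eda2r* and *Tnfsf14* with 5 FPKM added, those of *Tnfsf12*, *Tnfrsf12a* and *Eda2r* in a fit of only the groups compared, and those of *Tnfsf12*, *Tnfrsf12a*, *Eda2r* and *Tnfrsf11a* with no filter.

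**Figure D2:**
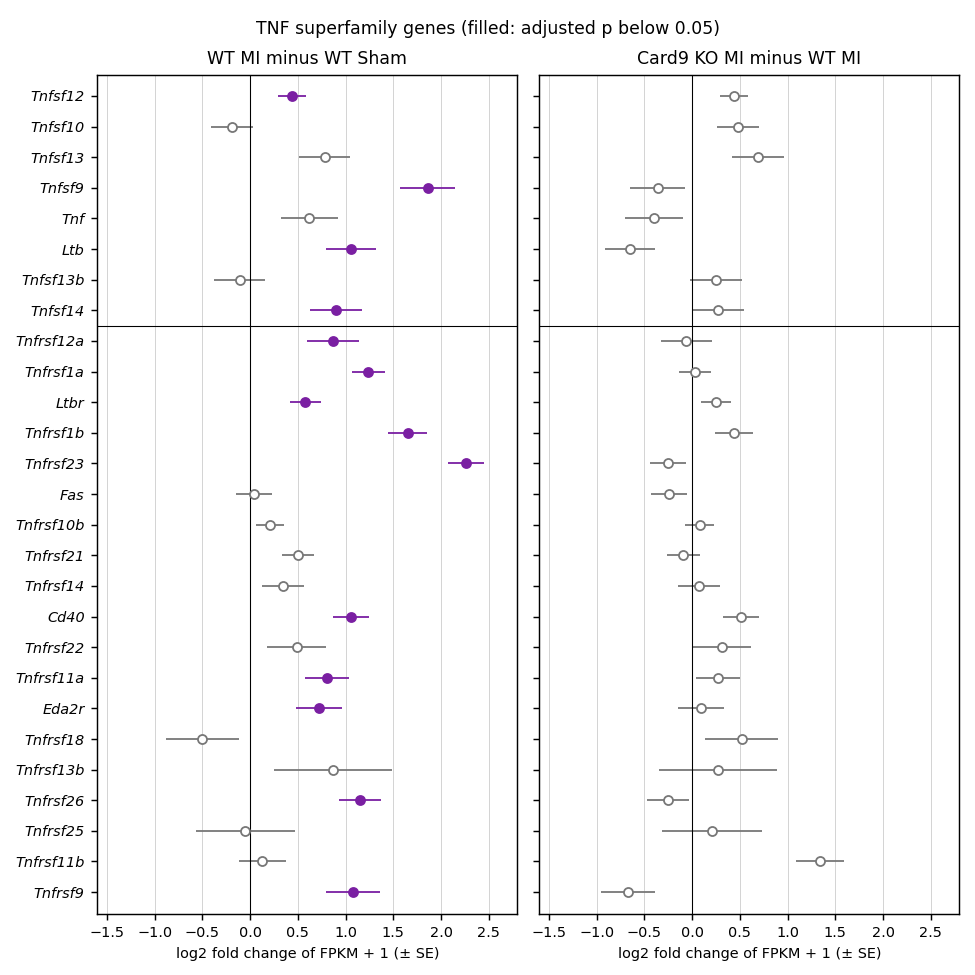
Log2 fold change of FPKM + 1 with its standard error (horizontal bars) for the 27 tested members, in WT MI against WT Sham (left) and in the libraries with the label Card9 KO MI against WT MI (right), with ligands above the line. Filled points have an adjusted p below 0.05: there are 14 on the left, all to the right of 0, and 0 on the right, where Tnfrsf11b lies farthest from 0 at 1.34.

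No member was called between WT MI and the libraries with the label *Card9* KO MI. Of all tested genes, 0.816% were called higher and 0.587% lower there. At an unadjusted p below 0.05 from limma, 4 members were higher (*Cd40*, *Tnfrsf11b*, *Tnfsf12* and *Tnfsf13*) and 2 lower (*Ltb* and *Tnfrsf9*), against 11.5% and 8.57% of all tested genes. Both *Card9* KO MI libraries lay above both WT MI libraries for 9 of the 27 members, and below both for 5, against 30.8% and 21.9% of all tested genes. The median log2 fold change was 0.21 over the members and 0.04 over all genes, or 0.09 and 0.03 with no minimum. In data simulated from these libraries, the same fit recovered 97 of 99 genes changed 4-fold and 59 of 100 changed 2-fold between these groups. These folds were set on the FPKM + 1 scale, in genes with a WT MI level above about 1 FPKM, and counting error was not simulated. Changes of around 2-fold could therefore be missed, and for lower members such as *Tnfrsf11b* the simulation does not say how large a change would be found.

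TNF, the cytokine after which the superfamily is named, was a low transcript, while the genes of its receptors were among the highest members. *Tnf* (mm9 chr17:35336326-35338952, minus strand) was measured at an FPKM of 0.98 and 0.20 in WT Sham hearts, 1.69 and 1.10 in WT MI hearts, and 0.86 and 0.75 in *Card9* KO MI hearts. Both WT MI libraries were above all others, but the gene was not called in either comparison. Its log2 fold change was 0.62 (standard error, SE, 0.30, adjusted p = 0.14) in WT MI against WT Sham and −0.40 (SE 0.30, adjusted p = 0.51) in *Card9* KO MI against WT MI. The first of these ran from 0.26 without WT Sham replicate 2 to 0.99 without WT Sham replicate 1, and the second from −0.22 to −0.58 without replicate 1 or 2 of WT MI. By the estimated fragments, 18 in WT MI and 6 in WT Sham, the ratio was 2.33 with an exact 95% interval from 0.887 to 7.18.

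TNF receptor 1, which carries a death domain and binds TNF and lymphotoxin alpha, is encoded by *Tnfrsf1a* (mm9 chr6:125299380-125312502, plus strand). Its FPKM was 30.05 and 20.20 in WT Sham hearts, 60.10 and 58.79 in WT MI hearts, and 64.54 and 56.73 in *Card9* KO MI hearts. It rose 2.37-fold in the group means from WT Sham to WT MI (log2 fold change 1.24, SE 0.17, adjusted p = 0.0013). The infarct groups overlapped, with a log2 fold change of 0.03 (SE 0.17).

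TNF receptor 2, encoded by *Tnfrsf1b* (mm9 chr4:144803366-144836773, minus strand), has no death domain, recruits TRAF2 and is found mainly on leukocytes and endothelium. Its FPKM was 5.89 and 3.52 in WT Sham hearts, 16.90 and 16.08 in WT MI hearts, and 24.39 and 21.02 in *Card9* KO MI hearts. The 3 groups did not overlap. It rose 3.50-fold in WT MI (log2 fold change 1.65, SE 0.20, adjusted p = 0.00073). Its log2 fold change in *Card9* KO MI against WT MI was 0.44 (SE 0.20, unadjusted p = 0.064, adjusted p = 0.28 from limma), which was not called.

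**Figure D3:**
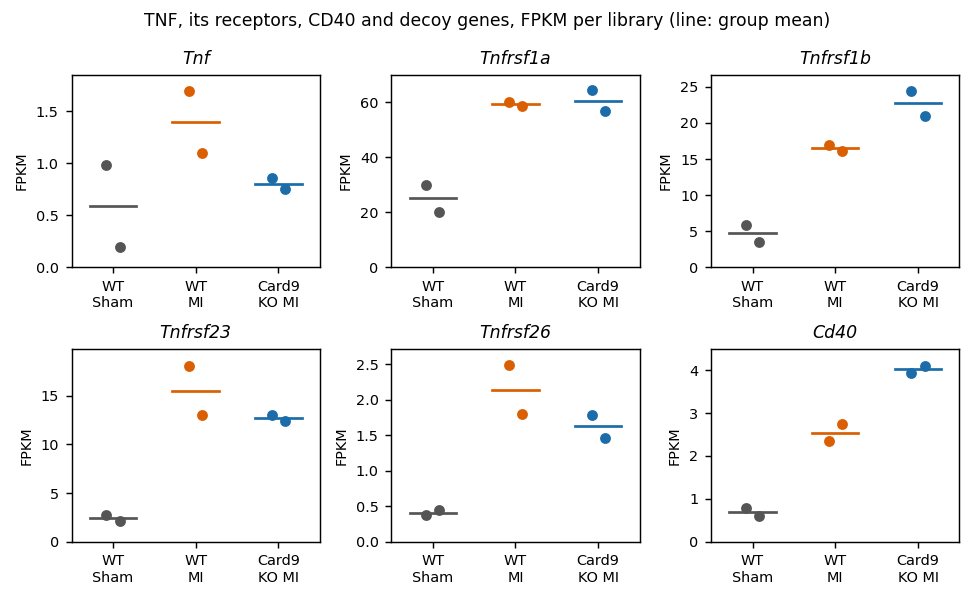
FPKM in each library (points) and the mean of each group (lines) for Tnf, the TNF receptor genes Tnfrsf1a and Tnfrsf1b, the clustered receptor genes Tnfrsf23 and Tnfrsf26, and Cd40; each panel has its own vertical axis from 0. Except for Tnf, each gene is higher in both WT MI libraries by a called difference, and Cd40 and Tnfrsf1b lie higher still in the libraries with the label Card9 KO MI without being called.

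The largest log2 fold change among the members on the log2(FPKM + 1) scale was that of *Tnfrsf23*, which encodes a mouse decoy receptor for the death ligand TRAIL that lacks a death domain. Its FPKM was 2.75 and 2.12 in WT Sham hearts, 18.09 and 12.98 in WT MI hearts, and 13.00 and 12.45 in *Card9* KO MI hearts. WT MI was 6.38-fold above WT Sham (log2 fold change 2.26, SE 0.19, adjusted p = 0.00014), while with 0.1 FPKM added in place of 1 the values of *Tnfsf9* (3.83) and *Tnfsf14* (3.25) exceeded its 2.62. The infarct groups overlapped for *Tnfrsf23* (log2 fold change −0.25, SE 0.19). *Tnfrsf23* lies at mm9 chr7:150851714-150871777, minus strand, close to *Tnfrsf26* at chr7:150793568-150813858 on the same strand. *Tnfrsf26* encodes a related receptor without a death domain. Its FPKM was 0.38 and 0.44 in WT Sham hearts, 2.48 and 1.80 in WT MI hearts, and 1.79 and 1.46 in *Card9* KO MI hearts, so that WT MI was 5.22-fold above WT Sham (log2 fold change 1.15, SE 0.22, adjusted p = 0.0060).

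A further related receptor gene, *Tnfrsf22*, was measured at an FPKM of 2.26 and 0.68 in WT Sham hearts, 2.52 and 2.05 in WT MI hearts, and 3.07 in both *Card9* KO MI libraries. Its first WT Sham library lay within the WT MI range, and the gene was not called in WT MI (log2 fold change 0.49, adjusted p = 0.26), although it was called without WT Sham replicate 1 (log2 fold change 0.96), and without WT Sham replicate 2 the value was 0.01 (adjusted p = 0.99). These receptor genes are close paralogs, and reads shared between them may have been split by the counting, so the single values are uncertain. The TRAIL gene *Tnfsf10* itself had 5.07 and 5.72 FPKM in WT Sham hearts, 3.50 and 5.99 in WT MI hearts, and 6.57 and 7.11 in *Card9* KO MI hearts. Its WT Sham values lay between those of WT MI, and it was not called in WT MI (log2 fold change −0.19, SE 0.22; 0.13 without WT MI replicate 1). The mouse TRAIL death receptor gene *Tnfrsf10b* ranged from 6.33 to 8.85 FPKM over all 6 libraries and was not called.

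CD40 is a costimulatory receptor of B cells, macrophages and other antigen-presenting cells. *Cd40* (mm9 chr2:164881127-164898448, plus strand) was measured at an FPKM of 0.78 and 0.61 in WT Sham hearts, 2.34 and 2.74 in WT MI hearts, and 3.93 and 4.11 in *Card9* KO MI hearts. The groups were separate and each was tight. *Cd40* rose 3.65-fold in WT MI (log2 fold change 1.06, SE 0.19, adjusted p = 0.0042). Between the infarct groups the means differed 1.58-fold, with a log2 fold change of 0.51 (SE 0.19) that did not pass the adjusted threshold (unadjusted p = 0.030, adjusted p = 0.20 from limma). The gene of its ligand, *Cd40lg*, was listed in no library.

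Osteoprotegerin, the secreted decoy receptor that binds RANKL and TRAIL, gave the largest difference between the infarct groups among the members. Its gene *Tnfrsf11b* (NCBI gene 18383; mm9 chr15:54082174-54110039, minus strand) was measured at an FPKM of 0.33 and 0 in WT Sham hearts, 0.26 and 0.27 in WT MI hearts, and 2.38 and 2.05 in the libraries with the label *Card9* KO MI. WT Sham and WT MI were at the limit of detection, with an estimated 3 fragments in both groups' libraries that had any, and the *Card9* KO MI libraries stood clearly above them with 53 fragments together. By these fragments the ratio of *Card9* KO MI to WT MI was 8.35, with an exact 95% interval from 3.59 to 23.8, which compares the libraries rather than the genotypes. The log2 fold change was 1.34 (SE 0.25), with an unadjusted p of 0.00080 and an adjusted p of 0.053 from limma, just outside the call. Over the alternatives its adjusted p ran from 0.033 to 0.28, and it was called with 5 FPKM added in place of 1 (log2 fold change 0.45, adjusted p = 0.033) and without the trend in the variance prior. It was called in *Card9* KO MI against WT Sham (log2 fold change 1.48, SE 0.25, adjusted p = 0.0022), where the ratio by fragments was 13.0 with an interval from 4.21 to 65.0.

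Fibroblasts and vascular cells are known sources of osteoprotegerin. The summed FPKM of 9 fibroblast markers, none at 0 in any library, was 542 and 519 in WT Sham hearts, 1520 and 2040 in WT MI hearts, and 3240 and 3110 in *Card9* KO MI hearts. In *Card9* KO MI against WT MI, 3 of the 9 were called higher and 0 lower. The log2 fold change was positive for 7 and negative for 2, with 1 lower at an unadjusted p below 0.05 from limma. The sum of 9 endothelial markers was 490 and 492 in WT MI and 547 in both *Card9* KO MI libraries, with none called. The part of either cell type in the *Tnfrsf11b* values was not tested.

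RANKL and its receptor RANK, best known from osteoclasts, were low. The RANKL gene *Tnfsf11* was listed at 0.14 and 0 FPKM in WT Sham hearts, 0.55 and 0.34 in WT MI hearts, and 0.62 and 0.22 in *Card9* KO MI hearts, too little to be tested. The RANK gene *Tnfrsf11a* (mm9 chr1:107677300-107744558, plus strand) had 1.38 and 0.66 FPKM in WT Sham hearts, 2.34 and 2.66 in WT MI hearts, and 3.51 and 2.92 in *Card9* KO MI hearts. It was called higher in WT MI (log2 fold change 0.81, SE 0.23, adjusted p = 0.029), but under neither other scaling nor without WT Sham replicate 2, WT MI replicate 1 or WT MI replicate 2, with log2 fold changes from 0.55 to 1.07 over the libraries left out. Both *Card9* KO MI libraries lay above both WT MI libraries, but by less than for *Tnfrsf11b*, with a log2 fold change of 0.27 (SE 0.23) that was not called.

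**Figure D4:**
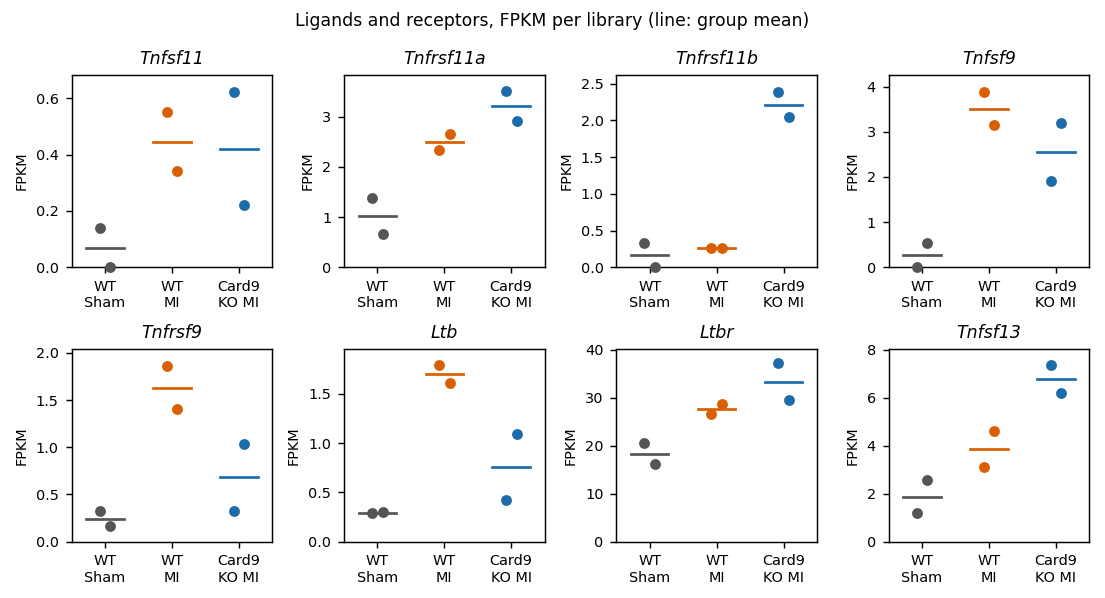
FPKM in each library (points) and group means (lines) for ligand and receptor genes: RANKL (Tnfsf11), RANK (Tnfrsf11a) and osteoprotegerin (Tnfrsf11b), Tnfsf9 and its receptor gene Tnfrsf9, Ltb and its receptor gene Ltbr, and Tnfsf13; each panel has its own vertical axis from 0. Tnfrsf11b stands at 2.38 and 2.05 in the libraries with the label Card9 KO MI and at 0.33 or less elsewhere, while Ltb and Tnfrsf9 are highest in WT MI.

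Lymphotoxin beta (*Ltb*) and CD137 (*Tnfrsf9*) rose in WT MI and were the members with the lowest log2 fold changes in *Card9* KO MI against WT MI. Lymphotoxin beta is a membrane ligand, made mainly by lymphoid cells, that anchors lymphotoxin alpha and acts through the lymphotoxin beta receptor. *Ltb* (mm9 chr17:35331384-35333265, plus strand, next to *Tnf* and *Lta* in the MHC) was measured at an FPKM of 0.29 and 0.30 in WT Sham hearts, 1.79 and 1.61 in WT MI hearts, and 0.42 and 1.09 in *Card9* KO MI hearts. The *Card9* KO MI libraries lay between the other groups. By estimated fragments, 15 in WT MI and 2 in WT Sham, the ratio was 5.83 (exact 95% interval 1.36 to 52.5), and the log2 fold change was 1.06 (SE 0.26, adjusted p = 0.016). Its call was lost with any 1 of the 4 WT libraries left out, at log2 fold changes from 1.01 to 1.11. Against WT MI, *Card9* KO MI had a log2 fold change of −0.65 (SE 0.26, unadjusted p = 0.040, adjusted p = 0.22 from limma), and −0.37 or −0.93 without its replicate 1 or 2. The ratio by fragments was 0.441 with an interval from 0.152 to 1.15.

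*Tnfrsf9* (mm9 chr4:150288671-150320211, plus strand) encodes CD137, a costimulatory receptor induced on activated T and NK cells and on myeloid cells. Its FPKM was 0.32 and 0.17 in WT Sham hearts, 1.86 and 1.40 in WT MI hearts, and 0.33 and 1.03 in *Card9* KO MI hearts. The first *Card9* KO MI library was at the WT Sham level and the second between the groups. The ratio of WT MI to WT Sham was 7.26 by fragments (28 against 3, exact 95% interval 2.24 to 37.3), with a log2 fold change of 1.08 (SE 0.28, adjusted p = 0.020) that was not called with any 1 of the 4 WT libraries left out (0.95 to 1.20). *Card9* KO MI against WT MI gave a log2 fold change of −0.67 (SE 0.28, unadjusted p = 0.046, adjusted p = 0.24 from limma), and −0.37 or −0.98 without its replicate 1 or 2. The ratio by fragments was 0.405 with an interval from 0.188 to 0.823, which compares the libraries and not the genotypes.

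The CD137 ligand gene *Tnfsf9*, expressed by activated antigen-presenting cells, rose with its receptor gene in WT MI. *Tnfsf9* (mm9 chr17:57244808-57247180, plus strand) was measured at an FPKM of 0 and 0.54 in WT Sham hearts, 3.87 and 3.14 in WT MI hearts, and 1.91 and 3.19 in *Card9* KO MI hearts. By estimated fragments, 34 against 2, WT MI was 13.2 times WT Sham (exact 95% interval 3.39 to 114), with a log2 fold change of 1.86 (SE 0.29, adjusted p = 0.0022). The infarct groups overlapped (log2 fold change −0.36, SE 0.29). The gene overlaps *Gm11110* on the opposite strand, which had at most 0.98 FPKM, and the sources used here do not say whether the counting used strand.

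The promoters of *Ltb* and *Tnfrsf9* were picked because these members were higher in WT MI, lower in *Card9* KO MI without being called, and hold a match to the kappaB consensus. This is the DNA motif of the NF-kappaB factors that TNF receptors and CARD9 activate. A part of these factors in the values of either gene was not tested. Each window runs from 250 bases before to 50 bases after the annotated start, on the plus strand, from RefSeq for GRCm38.p6, a build other than the mm9 of the positions above. The *Ltb* window is chr17:35194257-35194556 and the *Tnfrsf9* window chr4:150927749-150928048, the window of 1 of its 2 annotated starts. Capitals mark matches on either strand to the kappaB consensus and, in *Tnfrsf9*, also to the AP-1 motif TGANTCA.
Ltb: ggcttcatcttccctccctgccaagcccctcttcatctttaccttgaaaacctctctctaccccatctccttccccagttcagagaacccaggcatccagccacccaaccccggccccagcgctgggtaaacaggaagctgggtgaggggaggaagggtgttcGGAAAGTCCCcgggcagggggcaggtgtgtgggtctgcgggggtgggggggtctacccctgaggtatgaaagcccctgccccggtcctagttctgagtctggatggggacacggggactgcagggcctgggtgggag
Tnfrsf9: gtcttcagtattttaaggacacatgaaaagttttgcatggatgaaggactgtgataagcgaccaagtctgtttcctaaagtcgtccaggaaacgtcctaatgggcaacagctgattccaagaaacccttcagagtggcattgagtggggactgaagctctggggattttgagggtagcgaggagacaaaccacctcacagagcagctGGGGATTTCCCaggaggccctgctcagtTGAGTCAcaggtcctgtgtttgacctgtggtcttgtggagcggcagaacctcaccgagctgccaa
The kappaB match of *Ltb* begins 87 bases before the start. In *Tnfrsf9*, overlapping kappaB matches begin 43 and 42 bases before the start, and the AP-1 match 15 bases before it. Of 32851 RefSeq promoters, 8.46% hold the kappaB consensus and 7.81% the AP-1 motif. For 33 of the 41 members 37 promoters were given, and 20 of these members were tested. *Cd40*, *Tnfsf9* and *Tnfrsf11b* were among those without one, so their promoters were not searched. Counted by gene and not by promoter, 4 members hold the kappaB consensus (*Ltb*, *Tnfrsf25*, *Tnfrsf8* and *Tnfrsf9*) and 6 the AP-1 motif (*Fas*, *Tnfrsf8*, *Tnfrsf9*, *Tnfsf13*, *Tnfsf13b* and *Tnfsf14*). A match describes letters only, and members without either match in this window, such as *Tnfrsf1a*, *Tnfrsf1b* and *Tnfrsf23*, were also called higher in WT MI.

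Partners of *Ltb* showed different values. The lymphotoxin alpha gene *Lta* was listed only in the second *Card9* KO MI library, at 0.17 FPKM. *Ltbr*, the receptor gene of lymphotoxin beta and LIGHT, was abundant, with 20.53 and 16.10 FPKM in WT Sham hearts, 26.60 and 28.68 in WT MI hearts, and 37.21 and 29.47 in *Card9* KO MI hearts. Its groups did not overlap, and it was called higher in WT MI (log2 fold change 0.58, SE 0.16, adjusted p = 0.023) as deposited, but under neither other scaling nor without WT Sham replicate 2, WT MI replicate 1 or WT MI replicate 2 (0.41 to 0.74 over the libraries left out). *Tnfsf14*, the gene of LIGHT, was listed at 0 in both WT Sham libraries, at 1.06 and 0.68 in WT MI, and at 1.62 and 0.91 in *Card9* KO MI. Against a floor of 3 fragments per library (0.525 FPKM), its mean was at least 1.66-fold higher in WT MI and at least 2.41-fold higher in *Card9* KO MI. It was called higher in WT MI (log2 fold change 0.90, adjusted p = 0.033 from limma), although not with any 1 of the 4 WT libraries left out (0.75 to 1.04). The other LIGHT receptor gene, *Tnfrsf14*, ranged from 1.89 to 3.73 FPKM over the libraries and was not called.

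T cells were scarce by their markers in all groups. The summed FPKM of 11 listed T and NK cell markers was 5.37 and 4.87 in WT Sham hearts, where 5 of the 11 were at 0 in each library, 8.88 and 9.63 in WT MI hearts, and 9.44 and 10.3 in *Card9* KO MI hearts. The sum of 10 listed neutrophil markers was 10.6 and 7.07 in WT Sham hearts, 237 and 105 in WT MI hearts, and 66.8 and 54.6 in *Card9* KO MI hearts, with *Ngp* at 0 in 5 of the 6 libraries and *Ly6g*, *Camp* and *Stfa1* listed in none. Its group means were lowest in WT Sham and highest in WT MI, as did those of 8 of the 27 tested members (*Ltb*, *Tnf*, *Tnfrsf12a*, *Tnfrsf21*, *Tnfrsf23*, *Tnfrsf26*, *Tnfrsf9* and *Tnfsf9*). The sum of 15 macrophage markers, none at 0 in any library, was 437 and 374, 1500 and 1900, and 3040 and 2210 in the same groups. Like the fibroblast sum, it was lowest in WT Sham and highest in *Card9* KO MI. The group means of 14 of the 27 members had this order, *Cd40*, *Tnfrsf1b* and *Tnfsf12* among them, and the other 5 members had neither order. These orders rank group means without regard to spread, and for some members, such as *Tnfrsf1a* and *Tnfrsf12a*, the infarct libraries overlapped. The share of all genes in each order was not counted. Since all but 13 of the 27 could pass the minimum only with the help of an infarct library, orders with WT Sham lowest were favoured by the minimum itself. Of the macrophage markers, 14 of 15 were called higher for WT MI against WT Sham and 1 of 15 for *Card9* KO MI against WT MI. In the latter comparison 13 had a positive and 2 a negative log2 fold change, with 8 higher and 1 lower at an unadjusted p below 0.05 from limma. Of the 9 neutrophil markers tested, 8 were called higher for WT MI against WT Sham, and 0 were called in *Card9* KO MI against WT MI, where 4 were lower at an unadjusted p below 0.05 from limma. The part of these cells in the superfamily values was not tested.

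The most abundant members were the TWEAK receptor gene *Tnfrsf12a* and, among ligands, the TWEAK gene *Tnfsf12*, which are described because of their level, seen in the data. *Tnfrsf12a* (mm9 chr17:23812414-23814416, minus strand) encodes Fn14, a small TRAF-binding receptor induced by tissue injury. It had 78.32 and 46.00 FPKM in WT Sham hearts, 140.23 and 87.52 in WT MI hearts, and 105.89 and 106.49 in *Card9* KO MI hearts. The spread within the WT groups was wide, and the call in WT MI (log2 fold change 0.87, SE 0.27, adjusted p = 0.038) was lost under both other scalings and without WT Sham replicate 2 or WT MI replicate 1, with values from 0.50 to 1.25 over the libraries left out. The gene overlaps *Hcfc1r1* on the opposite strand, which had 146.18 and 168.05 FPKM in WT Sham and 114.24 to 116.92 in the infarct groups, and reads of the pair cannot be told apart if strand was not used.

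*Tnfsf12* (mm9 chr11:69499752-69509351, minus strand), the gene of TWEAK, had 10.36 and 13.48 FPKM in WT Sham hearts, 15.95 and 16.96 in WT MI hearts, and 23.79 and 21.74 in *Card9* KO MI hearts. The 3 groups did not overlap. It was called higher in WT MI as deposited (log2 fold change 0.44, SE 0.15, adjusted p = 0.046), at the edge of the threshold. The call was lost under both other scalings and without WT Sham replicate 1 or either WT MI library (0.27 to 0.62), and with the replicate number as a block it had an adjusted p of 0.057. Its log2 fold change in *Card9* KO MI against WT MI was also 0.44 (SE 0.15, unadjusted p = 0.016, adjusted p = 0.15 from limma).

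*Tnfsf13* lies next to *Tnfsf12*, at mm9 chr11:69496348-69499286, and encodes APRIL, a survival factor of plasma cells that myeloid cells secrete. Its FPKM was 1.20 and 2.56 in WT Sham hearts, 3.12 and 4.62 in WT MI hearts, and 7.35 and 6.20 in *Card9* KO MI hearts. The groups again stood in this order without overlap. In WT MI its log2 fold change was 0.78 (SE 0.27) and narrowly missed the call (adjusted p = 0.054), which it passed without WT Sham replicate 2 (1.13, adjusted p = 0.023). Without WT Sham replicate 1 the value was 0.43 (adjusted p = 0.24) and without WT MI replicate 2 it was 0.56 (adjusted p = 0.26). Against WT MI, *Card9* KO MI gave 0.69 (SE 0.27, unadjusted p = 0.035, adjusted p = 0.21 from limma). In *Card9* KO MI against WT Sham it was called, with a 3.60-fold higher mean (log2 fold change 1.47, SE 0.27, adjusted p = 0.0031). Both genes overlap a readthrough gene, *Tnfsfm13*, listed at 2.17 and 0 FPKM in WT Sham hearts, 2.55 and 2.40 in WT MI hearts, and 2.84 and 0.93 in *Card9* KO MI hearts, so reads can be shared among the 3.

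The receptors of APRIL and of its relative BAFF, which mark B lineage cells, were uneven between libraries. *Tnfrsf13b*, the gene of TACI, had 0.44 and 0.45 FPKM in WT Sham hearts, 0.68 and 3.15 in WT MI hearts, and 5.11 and 0.67 in *Card9* KO MI hearts. In each infarct group 1 library was high and 1 near the WT Sham level, and no comparison was called. *Tnfrsf13c* was listed at 0.69 FPKM in the second WT MI library and at 0.47 and 0.13 in *Card9* KO MI, and *Tnfrsf17* only in the first *Card9* KO MI library, at 0.29. The libraries high for *Tnfrsf13b* were thus also the highest for *Tnfrsf13c* within their group. The summed FPKM of 7 listed B cell markers was 7.49 and 5.81 in WT Sham and ranged from 9.86 to 11.4 over the infarct libraries. The BAFF gene *Tnfsf13b* ranged from 0.44 to 1.28 FPKM in all libraries and was not called.

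*Fas*, the death receptor gene that cytotoxic lymphocytes engage, was expressed without a called difference as deposited. *Fas* (mm9 chr19:34365149-34402260, plus strand) had 7.49 and 10.33 FPKM in WT Sham hearts, 8.04 and 10.17 in WT MI hearts, and 7.98 and 7.05 in *Card9* KO MI hearts. The WT groups overlapped fully (log2 fold change 0.04, SE 0.19; −0.17 to 0.24 as single libraries were left out). Its ligand gene *Fasl* was listed at 0.13 FPKM in both WT MI libraries, about 1 fragment each, and at 0 in the other 4. With quantile normalization alone, *Fas* was called lower in *Card9* KO MI than in WT Sham (log2 fold change −0.55, adjusted p = 0.037, over a range from 0.037 to 0.99).

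GITR, a costimulatory receptor of regulatory T cells, is encoded by *Tnfrsf18*. It had 1.59 and 2.49 FPKM in WT Sham hearts, 0.62 and 1.80 in WT MI hearts, and 3.21 and 1.22 in *Card9* KO MI hearts. All 3 groups overlapped, and the log2 fold change of 0.52 in *Card9* KO MI against WT MI (SE 0.38, adjusted p = 0.50) ran from 0.06 to 0.98 as single libraries were left out. The gene overlaps *Gm16008* on the opposite strand. The GITR ligand gene *Tnfsf18* was listed in the first library of each group only, at 0.31, 0.12 and 0.56 FPKM.

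Of the members not described so far, *Eda2r*, the receptor gene of an ectodysplasin isoform, was called higher in WT MI (log2 fold change 0.72, SE 0.24, adjusted p = 0.048) with 1.25 and 0.70 FPKM in WT Sham against 2.70 and 1.80, but under neither other scaling nor without WT Sham replicate 2 or either WT MI library (0.52 to 0.92). *Tnfrsf21*, the gene of death receptor 6, had 4.15 and 3.79 FPKM in WT Sham hearts and 5.48 and 6.61 in WT MI and just missed the call (adjusted p = 0.052), and *Tnfrsf25* ranged from 0.20 to 2.55 FPKM within WT Sham alone. The 14 members that were listed but not tested reached at most 1.56 FPKM: *Cd27*, *Fasl*, *Lta*, *Ngfr*, *Tnfrsf13c*, *Tnfrsf17*, *Tnfrsf19*, *Tnfrsf4*, *Tnfrsf8*, *Tnfsf11*, *Tnfsf15*, *Tnfsf18*, *Tnfsf4* and *Tnfsf8*. Most of these are known from activated lymphocytes. *Tnfrsf19*, a receptor of embryonic and epithelial tissues, had 0.62 and 1.38 FPKM in WT Sham and between 0.17 and 0.42 in the 4 infarct libraries.

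In *Card9* KO MI against WT Sham, 14 of the 27 tested members were called higher and 0 lower, against 34.8% and 14.3% of all tested genes, and 0 members were lower at an unadjusted p below 0.05 from limma. Their median log2 fold change was 0.81, and that of all genes 0.24 (0.41 and 0.14 with no minimum). This comparison shares libraries with each of the others, so its values stand only side by side with them. *Tnfrsf11b* and *Tnfsf13* were called here and not in WT MI against WT Sham, and *Ltb* (0.41, adjusted p = 0.23) and *Tnfrsf9* (0.40, adjusted p = 0.27) were called there and not here. The largest log2 fold changes were those of *Tnfrsf1b* (2.08, SE 0.20), *Tnfrsf23* (2.00, SE 0.19) and *Cd40* (1.57, SE 0.19). All genes together split into 4569 higher and 1875 lower as deposited, 3202 and 2921 with upper-quartile scaling, and 2843 and 3409 with quantile normalization, at medians of 0.24, 0.02 and −0.09, and 10 members were called higher as deposited and under both other scalings. Among the 13 members at an FPKM of 1 or more in both WT Sham libraries, upper-quartile scaling called 6 higher and 0 lower. Quantile normalization called 6 of them higher and 1 lower. With 1 library left out, the median log2 fold change of the members ran from 0.61 to 1.00, against 0.21 to 0.27 for all genes.

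Downstream of these receptors, a list of 31 adaptors and effectors was followed in the same fit, among them the TRAFs, the ubiquitin ligases and kinases of the NF-kappaB pathway, and the proteins of cell death. All 31 were tested. In WT MI against WT Sham, 9 were called higher and 0 lower (0 also at an unadjusted p below 0.05 from limma), with a median log2 fold change of 0.22. The share called higher, 29.0% of the list, lay near the 27.7% of all genes. The 3 with the largest called changes were *Ripk3*, *Casp8* and *Mlkl*. *Ripk3*, the kinase that starts necroptosis, had 1.35 and 0.70 FPKM in WT Sham hearts, 9.65 and 6.44 in WT MI hearts, and 11.05 and 9.57 in *Card9* KO MI hearts, with a log2 fold change of 2.15 (SE 0.24, adjusted p = 0.00044) in WT MI. *Casp8*, whose protease holds necroptosis in check and executes death-receptor apoptosis, had 2.16 and 3.99 FPKM, 9.23 and 11.01, and 12.45 and 12.08 in the same groups, with a log2 fold change of 1.48 (SE 0.22, adjusted p = 0.0019). *Mlkl*, the pore-forming substrate of RIPK3, had 2.98 and 3.11, 7.73 and 11.40, and 9.73 and 14.41 FPKM, with a log2 fold change of 1.36 (SE 0.23, adjusted p = 0.0031). All these were called in every alternative fit and in each fit with 1 library left out.

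Between WT MI and the libraries with the label *Card9* KO MI, 0 of the 31 adaptors and effectors were called, and at an unadjusted p below 0.05 from limma 6 were higher and 0 lower, against the 11.5% and 8.57% of all genes given above. In *Card9* KO MI against WT Sham 14 were called higher, 45.2% of the list, and 0 lower, beside 34.8% and 14.3% of all genes. Of related genes outside the naming rule, *Relt*, a TNF receptor homolog, had 2.23 and 1.63 FPKM in WT Sham hearts, 4.19 and 3.95 in WT MI hearts, and 3.36 and 1.97 in *Card9* KO MI hearts. It was called higher in WT MI (log2 fold change 0.80, SE 0.24, adjusted p = 0.031), though under neither other scaling nor without WT Sham replicate 2 or either WT MI library (0.65 to 0.95). It was not called in *Card9* KO MI against WT MI (log2 fold change −0.49, adjusted p = 0.29). The ectodysplasin gene *Eda* stayed between 0.82 and 1.26 FPKM in all libraries without a call.

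**Figure D5:**
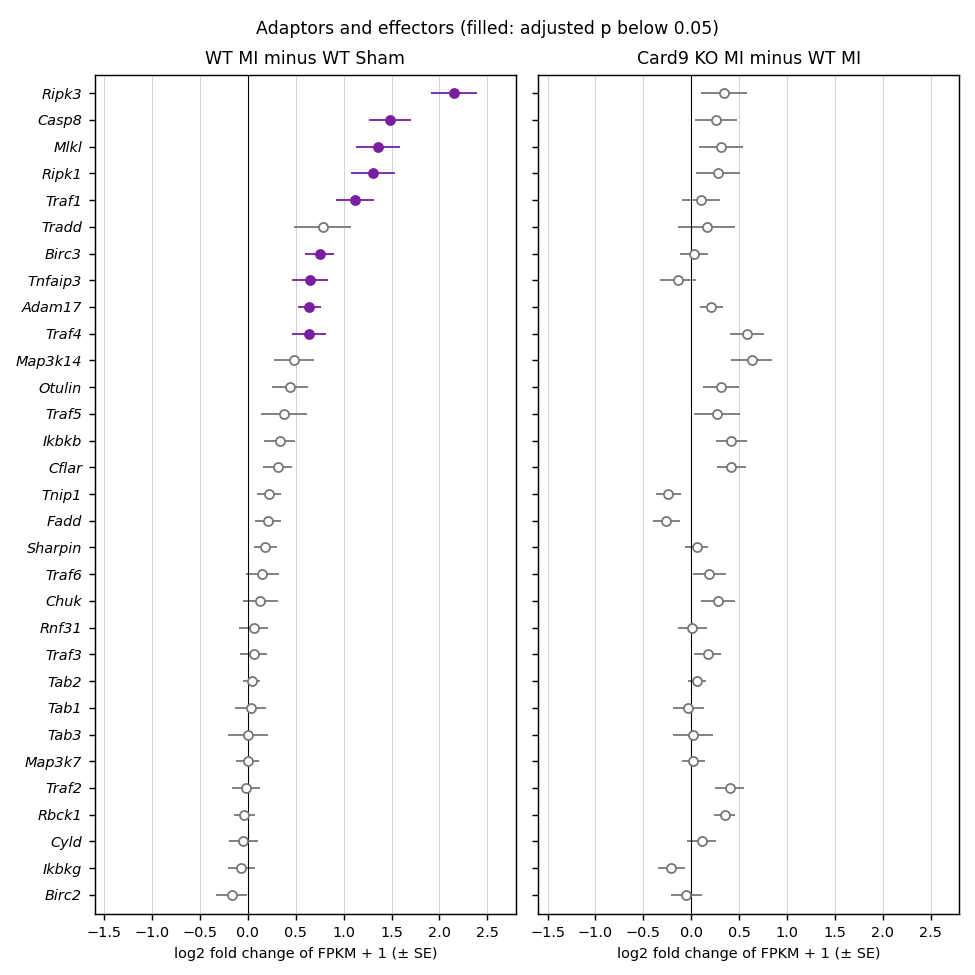
Log2 fold change of FPKM + 1 with its standard error (horizontal bars) for the 31 adaptors and effectors of TNF receptors, in WT MI against WT Sham (left) and in the libraries with the label Card9 KO MI against WT MI (right), ordered by the left panel. Filled points have an adjusted p below 0.05: Ripk3, Casp8 and Mlkl lead the 9 on the left, and there are 0 on the right.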

How the data were processed

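RNA of heart tissue from 6 mouse libraries, 2 per group, was extracted with TRIzol, enriched for mRNA and prepared with a TruSeq kit. By the submitters' processing notes and the study's methods, filtered reads were mapped to mm9 (BWA, Bowtie2), and the FPKM that the authors deposited are given by NCBI gene number for genes above 0 only. The gene annotation and the use of strand are not given in the sources used here. Unlisted genes were set to 0. Symbols came from RefSeq (GRCm38.p6, names only; 17390 matched, 51 not), and positions from the mm9 GENCODE annotation. Groups were taken from the sample titles, and 0 value columns were left unmapped.

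The members, gene lists and tests were chosen with earlier results of these data known. Values were fitted as log2(FPKM + 1) with limma 3.58.1 (lmFit, eBayes with trend) in R 4.3.3, the 3 groups in one fit without covariates, for the 13120 genes with an FPKM of 1 or more in 2 or more libraries, with Benjamini-Hochberg adjustment over these genes and calls below 0.05. With 2 libraries against 2, no exact permutation test can reach 0.05. Depth was estimated from the steps between low FPKM values; only 67.8% to 71.8% of these came out within 0.15 of a whole fragment, so no count test across genes was run, and the exact intervals on estimated fragments of single genes are approximate. The fit was tested on simulated data. Members are given with all their values if they were called or moved by 0.5 or more (log2) in Card9 KO MI against WT MI, if they were called and moved by 1 or more in WT MI against WT Sham, if they are ligand or receptor partners of these, or if they are Tnf, Tnfrsf1a, Tnfrsf1b, Fas, Fasl, Cd40, Cd40lg, Tnfsf11, Tnfrsf11a or Tnfrsf11b; Tnfrsf12a, Tnfsf12, Tnfrsf22, Eda2r, Tnfrsf13c, Relt and Tnfrsf19 were added after their values were seen. From the 31 adaptors and effectors, the 3 with the largest called change were named. Alternatives were 0.1 or 5 FPKM added, no filter, only genes with a mean FPKM of 5 or more, quantile normalization, upper-quartile scaling, only the groups compared, no trend, the replicate number as a block, and each library left out.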

Additional observations from a re-analysis of the deposited data

How the results depend on the processing

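The count of members called higher in WT MI against WT Sham, 14 of 27, became 6 of 10 with a mean FPKM of at least 5 and 9 with upper-quartile scaling or quantile normalization, and lay between 6 and 11 with each library left out. For Card9 KO MI against WT MI, 1 member (Tnfrsf11b) was called higher with 5 FPKM added and without the trend, and 0 in the other fits. In Card9 KO MI against WT Sham, those 14 called higher became 6 with a mean FPKM of at least 5, and quantile normalization called 1 lower (Fas). With fewer genes passing, the filter on the mean tests fewer members by construction; otherwise the cause was not tested. Without WT Sham replicate 2 the log2 fold change of Tnfrsf11b in WT MI against WT Sham, 0.13, turned to −0.07, over a range from −0.07 to 0.34 with each library left out. Libraries share only a replicate number: the deviations of same-numbered libraries correlated at 0.002, −0.008 and 0.02 across 13120 genes. With the replicate number as a block, 13 members were called higher in WT MI against WT Sham (Tnfsf12 lost its call), 0 in Card9 KO MI against WT MI and 14 in Card9 KO MI against WT Sham. Of 320 alternative values for 26 named fold changes, 268 kept their direction and their side of the threshold, 48 lost the call, 3 gained it and 1 changed sign. Only fold changes called in the main fit could lose a call, so these totals say little about the stability of calls. Some fold changes outside the 26 also changed sign as single libraries were left out. In WT MI against WT Sham, Fas (0.04) ran from −0.17 to 0.24 and Tnfsf10 (−0.19) from −0.51 to 0.13. Depth limits most what can be said of members below about 0.5 FPKM.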
